A study of Homo sapiens with 10 samples.

Results

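The genes described here are the neighbours of the HOXC cluster on human chromosome 12. They were chosen by position alone, as the genes whose start lies between 53.5 Mb and 55.5 Mb on chromosome 12 in the coordinates of the deposited tables. Symbols that begin with HOXC, MIR, SNOR or ATP5 were left out. The window holds 46 genes, and leaving out 7 HOXC genes, 2 microRNA genes and 1 ATP5 gene gave 36 of the 18480 genes in each table, called the window genes below. The long noncoding RNA (lncRNA) LOC400043, which RefSeq now names LINC02381, lies in this window between HOXC5 and SMUG1. RefSeq places it at chr12:54126071-54132843 on GRCh38.p14. It has no probe set in the tables, so its own level was not measured here. The genome build of the tables' coordinates is not given in the sources used here. RefSeq puts 35 of the 36 genes on chromosome 12, in the same order. The exception is the probe set named HIGD1A, whose transcripts are those of a gene on chromosome 3, so its values may not belong to this window.

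HEK-293 cells, an established line of human embryonic kidney origin, received small interfering RNAs (siRNAs) by transient transfection with the lipid reagent RNAiMax, at 10 nM. There were 5 groups of 2 Affymetrix HuGene-1_0-st arrays: a scrambled control, each of a pair of siRNAs (1 and 2) against LINC00324, a lncRNA of chromosome 17, and each of a pair (1 and 2) against LOC400043. All groups share the cell line, the reagent and the dose, and the hours between transfection and harvest are not given in the labels. The labels call the arrays of a group biological replicates without naming separate cultures, so p-values measure the spread between these arrays, which may be technical. Values are log2 levels from RMA, which corrects background, equalizes the arrays and combines the probes of a gene. The LOC400043 table and the LINC00324 table each hold their own 4 siRNA arrays and the same 2 scramble arrays, normalized separately, and each was tested alone.

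An siRNA guides an Argonaute protein to cleave RNA that matches it. Some lncRNAs act on genes close to the place where they are transcribed, and others act away from it, for example by binding microRNAs as a sponge, the property named in the title of the series. The HOXC genes encode homeobox transcription factors that give cells their position along the body axis. Their neighbours have unrelated tasks and include CBX5, which encodes a heterochromatin protein, ESPL1, which encodes the protease that frees sister chromatids, SP1, which encodes a transcription factor of most cells, and ITGA5, which encodes part of the fibronectin receptor. The question put to the window genes was whether their changes with each siRNA depended on where they lie.

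Only LINC00324, listed under its former symbol C17orf44, could be checked as a target. Its log2 level was 5.79 and 5.80 in the scramble arrays, 5.37 and 5.03 with LINC00324 siRNA 1, and 5.24 and 5.60 with siRNA 2. Both siRNAs thus gave values under the controls. The mean difference was -0.49 (SE 0.13), which was not called (limma, adjusted p = 0.185). In the LOC400043 table the same probe set differed from scramble by -0.23 (SE 0.07, adjusted p = 0.0570). Of the HEK-293 markers VIM, KRT8, KRT18, NEFM, NEFL and PAX2, 5 were measured, and their mean level was 8.93 to 8.97 in scramble, 8.63 to 8.74 with LOC400043 siRNA 1 and 8.74 to 8.77 with siRNA 2, and 8.93 to 9.07 in the LINC00324 table. Of the 5, NEFM, a neurofilament gene, fell by 0.89 with the mean of the LOC400043 siRNAs, by 0.47 with siRNA 1 and by 1.31 with siRNA 2. VIM, the vimentin gene, fell by 0.77 with siRNA 1 (limma, adjusted p = 0.00279) and rose by 0.45 with siRNA 2 (adjusted p = 0.00632). KRT18, a keratin gene, fell by 0.31 with siRNA 1 (adjusted p = 0.0406). The part of these markers in the results below was not tested. The mean level of markers of other cell types ran from 4.70 to 5.31 for blood cells, from 5.55 to 6.03 for fibroblasts, from 5.82 to 6.33 for squamous epithelium and from 5.56 to 5.90 for hepatocytes. No marker of these other cell types was called with the mean of either lncRNA's siRNAs, and with the siRNAs apart 1 was, LUM of fibroblasts, lower with LOC400043 siRNA 2.

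To show what lies at the start of the genes on which the results turn, the 250 bases before the RefSeq start are given for CBX5, the called gene nearest to LOC400043, and for ESPL1 and C12orf10, which lie on either side of PFDN5 and changed in opposite directions. They are read 5′ to 3′ on each gene's strand, from RefSeq on GRCh38.p14, at chr12:54280123-54280372 on the minus strand, chr12:53268049-53268298 on the plus strand and chr12:53299445-53299694 on the plus strand. Capitals mark the GC box GGGCGG, the CCAAT box and the E-box CACGTG, each on either strand.
CBX5: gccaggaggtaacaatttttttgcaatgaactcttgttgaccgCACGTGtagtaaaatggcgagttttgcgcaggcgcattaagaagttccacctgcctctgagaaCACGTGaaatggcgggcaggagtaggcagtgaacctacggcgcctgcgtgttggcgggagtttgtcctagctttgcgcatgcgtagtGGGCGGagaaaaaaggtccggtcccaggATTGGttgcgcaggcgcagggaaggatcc
ESPL1: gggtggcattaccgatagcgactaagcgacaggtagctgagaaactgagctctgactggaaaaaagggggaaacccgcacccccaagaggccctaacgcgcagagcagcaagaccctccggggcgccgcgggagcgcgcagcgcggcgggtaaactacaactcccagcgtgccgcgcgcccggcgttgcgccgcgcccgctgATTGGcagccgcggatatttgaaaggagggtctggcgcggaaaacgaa
C12orf10: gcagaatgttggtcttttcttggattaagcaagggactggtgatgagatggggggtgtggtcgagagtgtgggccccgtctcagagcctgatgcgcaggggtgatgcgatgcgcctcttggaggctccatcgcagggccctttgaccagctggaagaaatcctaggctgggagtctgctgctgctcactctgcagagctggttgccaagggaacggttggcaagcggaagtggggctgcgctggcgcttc
CBX5 has 2 E-boxes, 1 GC box and 1 CCAAT box in this stretch, ESPL1 has 1 CCAAT box, and C12orf10 has none of the 3 motifs. Among the 24 window genes with a RefSeq promoter, 12 hold a GC box (50%), against 42.6% of 35116 promoters of the same length. The CCAAT box is in 11 (45.8%, against 32.0%) and the E-box in 2, CBX5 and ATF7 (8.33%, against 6.34%). None holds TGACGTCA, the palindromic site of CREB and ATF factors, which 1.65% of all promoters hold. These matches are descriptions of letters and not of binding sites.

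With the LOC400043 siRNAs, 6 of the 36 window genes were called at an adjusted p under 0.05, which is 16.7%, while 17.5% of all genes in the table were called. C12orf10, CBX5 and SP7 rose, and ESPL1, PPP1R1A and AAAS fell. The differences between the mean of both siRNAs and scramble ran from -0.45 to 0.38, and none of the window genes passed 0.5 in either direction, a size that 3.71% of all genes reached. The median difference of the window genes was 0.03 against 0.02 for all genes, and the median size was 0.10 against 0.12. At an unadjusted p under 0.05 there were 9 window genes, or 25%, against 31.1% of the table. All 4 siRNA arrays lay above both scramble arrays for 4 window genes (13.5% of the table did so) and below both for 5 (17.1% of the table). With the LINC00324 siRNAs, which aim at a lncRNA of another chromosome, no window gene was called, while 0.476% of the table was. For LINC00324, 5 window genes passed an unadjusted p of 0.05 by limma, as did 14.1% of the table, and the differences ran from -0.31 to 0.42. Its 4 siRNA arrays lay above both scramble arrays for 3 window genes (7.87% of the table) and below both for 3 (11.8% of the table). RNA from a dish of cells was measured, so fewer cells of a kind and less RNA per cell cannot be told apart.

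Over the whole table, 1124 genes were called higher (6.08%) and 2118 lower (11.5%) with the LOC400043 siRNAs, a split that became 1592 against 1622 when the arrays were centred on their medians and 1531 against 1909 after a second quantile normalization. Among the window genes, 3 were higher and 3 lower as deposited, 3 and 2 after centring, and 4 and 3 after the second normalization.

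**Figure D1:**
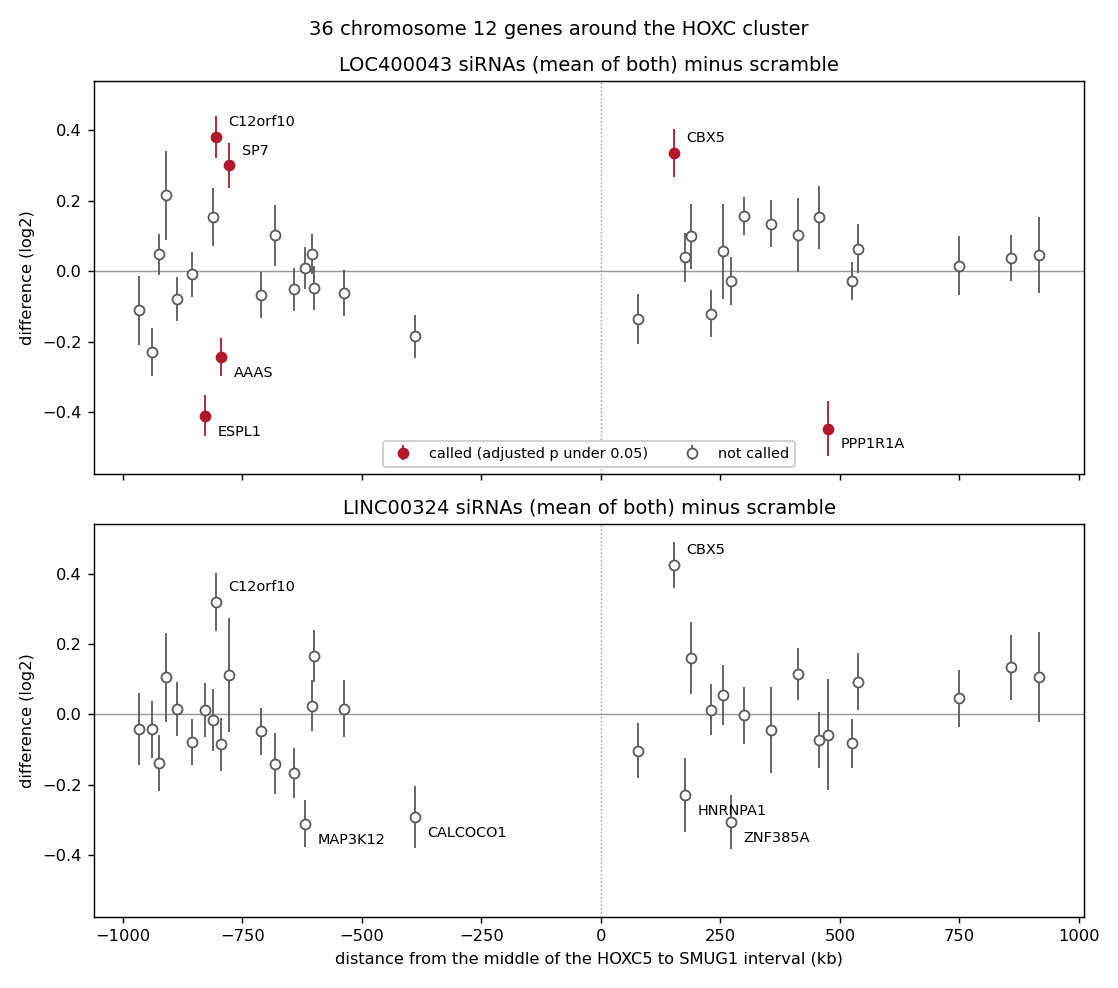
Difference between the mean of both siRNAs and scramble (log2, vertical axis) for the 36 window genes against their distance in kb from the middle of the interval between HOXC5 and SMUG1 (horizontal axis), with LOC400043 siRNAs above and LINC00324 siRNAs below. Points are limma estimates, bars are 1 SE, and filled points were called. The 6 called genes of the upper panel lie from 152 kb to 827 kb away, among genes near 0, and no gene of the lower panel was called.

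Distance was measured from the middle of the 146 kb interval between the last measured HOXC gene and SMUG1 to the middle of each gene. The nearest window gene was SMUG1 at 76.8 kb and the farthest HIGD1A at 966 kb, with 19 genes before the interval and 17 after it. Within 500 kb before it lay 1 gene, CALCOCO1, which was not called with the mean of the LOC400043 siRNAs (17.5% of the table was). From 500 to 1000 kb before it, 2 of 18 genes rose (6.08% of the table did) and 2 fell (11.5% of the table), with a median of -0.03. Within 500 kb after it, 1 of 12 genes rose and 1 fell, with a median of 0.08. None of the 5 genes from 500 to 1000 kb after it was called. These 5 genes had low mean log2 levels, from 4.97 to 6.32. Of the 4733 genes of the table with a mean under 6, 154 were called, so level and position cannot be told apart for them. Across the 36 genes the size of the difference had a Pearson correlation of 0.05 and a Spearman correlation of -0.01 with distance. These points share their arrays and are not independent, so they are given as a description. Measured from LINC02381 itself on GRCh38.p14, with 35 genes, the values were 0.06 and -0.00056. With siRNA 1 alone (11.5% of the table called), 2 of the 18 genes from 500 to 1000 kb before the interval rose and 1 fell, 1 of the 12 within 500 kb after it rose, and the other stretches held no call. With siRNA 2 alone (21.7% of the table called), CALCOCO1 fell, 1 of the 18 rose and 3 fell, 1 of the 12 rose and 2 fell, and none of the last 5 was called. The Pearson and Spearman correlations of size with distance were -0.09 and 0 with siRNA 1, and 0.03 and -0.04 with siRNA 2. For the mean of the LINC00324 siRNAs the Pearson correlation of size with distance was -0.28 and the Spearman correlation was -0.19. They were 0.06 and 0.18 with LINC00324 siRNA 1, and -0.34 and -0.24 with siRNA 2. None of the 4 stretches held a gene called with the mean of the LINC00324 siRNAs or with siRNA 1 (0.498% of the table called), and with siRNA 2 (1.85% of the table) 1 of the 12 genes within 500 kb after the interval rose and 1 fell.

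Of the 10 window genes nearest to the interval, 5 on each side, 1 was called with the mean of the LOC400043 siRNAs (17.5% of the table was), namely CBX5. The other 9 differed from scramble by -0.18 to 0.10, and their 95% intervals ran from -0.33 at the lowest to 0.32 at the highest. With the mean of the LINC00324 siRNAs none of the 10 was called (0.476% of the table was), and the differences ran from -0.31 to 0.42.

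CBX5 encodes heterochromatin protein 1 alpha, which binds a methylated histone mark of silent chromatin. It lies at chr12:54634736-54673886 on the minus strand in the tables' coordinates. Its log2 level was 11.83 and 11.79 in the scramble arrays, 12.43 and 12.33 with LOC400043 siRNA 1, and 11.84 and 11.99 with siRNA 2. Both arrays of siRNA 1 stood well above scramble, and those of siRNA 2 lay just above it. The mean of both siRNAs was higher by 0.34 (SE 0.07, limma, adjusted p = 0.0188), or 1.26-fold, made up of 0.57 with siRNA 1 (SE 0.08, adjusted p = 0.00753) and 0.10 with siRNA 2 (SE 0.08, adjusted p = 0.428). siRNA 1 minus siRNA 2 was 0.47 (SE 0.08, adjusted p = 0.00925). In the LINC00324 table the level was 11.87 and 11.84 in the scramble arrays, 12.19 and 12.19 with LINC00324 siRNA 1, and 12.41 and 12.34 with siRNA 2. All 4 arrays of LINC00324 siRNAs were above both scramble arrays. The difference was 0.33 with siRNA 1 (SE 0.08, adjusted p = 0.148) and 0.52 with siRNA 2 (SE 0.08, adjusted p = 0.0335), and the mean of 0.42 (SE 0.07) was not called (adjusted p = 0.0693). Both tables use the same scramble arrays, so these are not separate comparisons. The call with the LOC400043 siRNAs ended without scramble replicate 2, either array of siRNA 1 or replicate 2 of siRNA 2 (adjusted p = 0.0518 to 0.0725), and with both siRNAs as a single group (adjusted p = 0.339).

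HNRNPA1, which encodes a splicing regulator, starts 602 bases from CBX5 on the other strand in the same coordinates, so the genes stand head to head. Its log2 level was 7.96 and 8.14 in the scramble arrays of the LOC400043 table, 8.01 and 8.07 with siRNA 1, and 8.15 and 8.13 with siRNA 2. The groups overlapped, and the mean difference was 0.04 (SE 0.07, 95% interval -0.13 to 0.20, adjusted p = 0.742). With LINC00324 siRNA 2 its 2 arrays stood at 7.72 and 7.52, below the scramble arrays at 7.96 and 8.16, with a difference of -0.44 (SE 0.12) that was not called (adjusted p = 0.135). CBX5 stood at its highest in those same arrays of that table.

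SMUG1, which encodes a glycosylase that removes uracil from DNA, is the nearest window gene. Its level was 8.17 and 8.32 in scramble, 8.16 and 8.14 with LOC400043 siRNA 1, and 8.01 and 8.14 with siRNA 2. All 4 siRNA arrays were below scramble, by a mean of -0.13 (SE 0.07, 95% interval -0.30 to 0.03, adjusted p = 0.249). NFE2, a transcription factor gene of red cell and platelet precursors, was at 5.76 and 5.77 in scramble, 6.02 and 5.70 with siRNA 1, and 5.84 and 5.89 with siRNA 2, with a difference of 0.10 (SE 0.09). COPZ1, which encodes a subunit of the coatomer that coats transport vesicles, was at 11.79 and 11.93 in scramble, 11.65 and 11.71 with siRNA 1, and 11.76 and 11.83 with siRNA 2, with a difference of -0.12 (SE 0.07). Neither was called. With the LINC00324 siRNAs the 3 genes differed from scramble by -0.10, 0.16 and 0.01, also without a call.

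On the other side, CALCOCO1, which encodes a coiled-coil protein known as a transcription coactivator, lies nearest at 389 kb. Its level was 8.51 and 8.53 in scramble, 8.54 and 8.48 with LOC400043 siRNA 1, and 8.10 and 8.21 with siRNA 2. The arrays of siRNA 1 overlapped scramble and those of siRNA 2 lay below it, with a difference of -0.36 (SE 0.07, adjusted p = 0.0129). The mean of both siRNAs, -0.18 (SE 0.06), was not called (adjusted p = 0.0864). In the LINC00324 table it was at 8.57 and 8.53 in scramble, 8.07 and 8.26 with siRNA 1, and 8.43 and 8.27 with siRNA 2, all 4 siRNA arrays lower, by a mean of -0.29 (SE 0.09, adjusted p = 0.216).

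ATF7, which encodes a leucine zipper transcription factor, was at 9.004 and 9.17 in scramble, 8.84 and 8.88 with LOC400043 siRNA 1, and 9.19 and 9.18 with siRNA 2. Scramble lay between the siRNAs, whose mean differed from it by -0.06 (SE 0.07). NPFF, the gene of the neuropeptide FF precursor, was at 7.59 and 7.49 in scramble, 7.54 and 7.46 with siRNA 1, and 7.45 and 7.51 with siRNA 2. Its groups overlapped, with a difference of -0.05 (SE 0.06). TARBP2, which encodes a partner of the microRNA-processing enzyme Dicer, was at 8.76 and 8.69 in scramble, 8.67 and 8.69 with siRNA 1, and 8.89 and 8.85 with siRNA 2, with a difference of 0.05 (SE 0.06). MAP3K12, a kinase gene upstream of JNK signalling, was at 6.94 and 6.84 in scramble, 6.93 and 7.01 with siRNA 1, and 6.83 and 6.82 with siRNA 2, with a difference of 0.01 (SE 0.06). None of these 4 genes was called with the mean of the LOC400043 siRNAs. For MAP3K12 the LINC00324 table gave 7.12 and 7.05 in scramble, 6.80 and 6.79 with siRNA 1, and 6.72 and 6.77 with siRNA 2. All 4 were below scramble, by a mean of -0.31 (SE 0.07), yet without a call (adjusted p = 0.123).

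**Figure D2:**
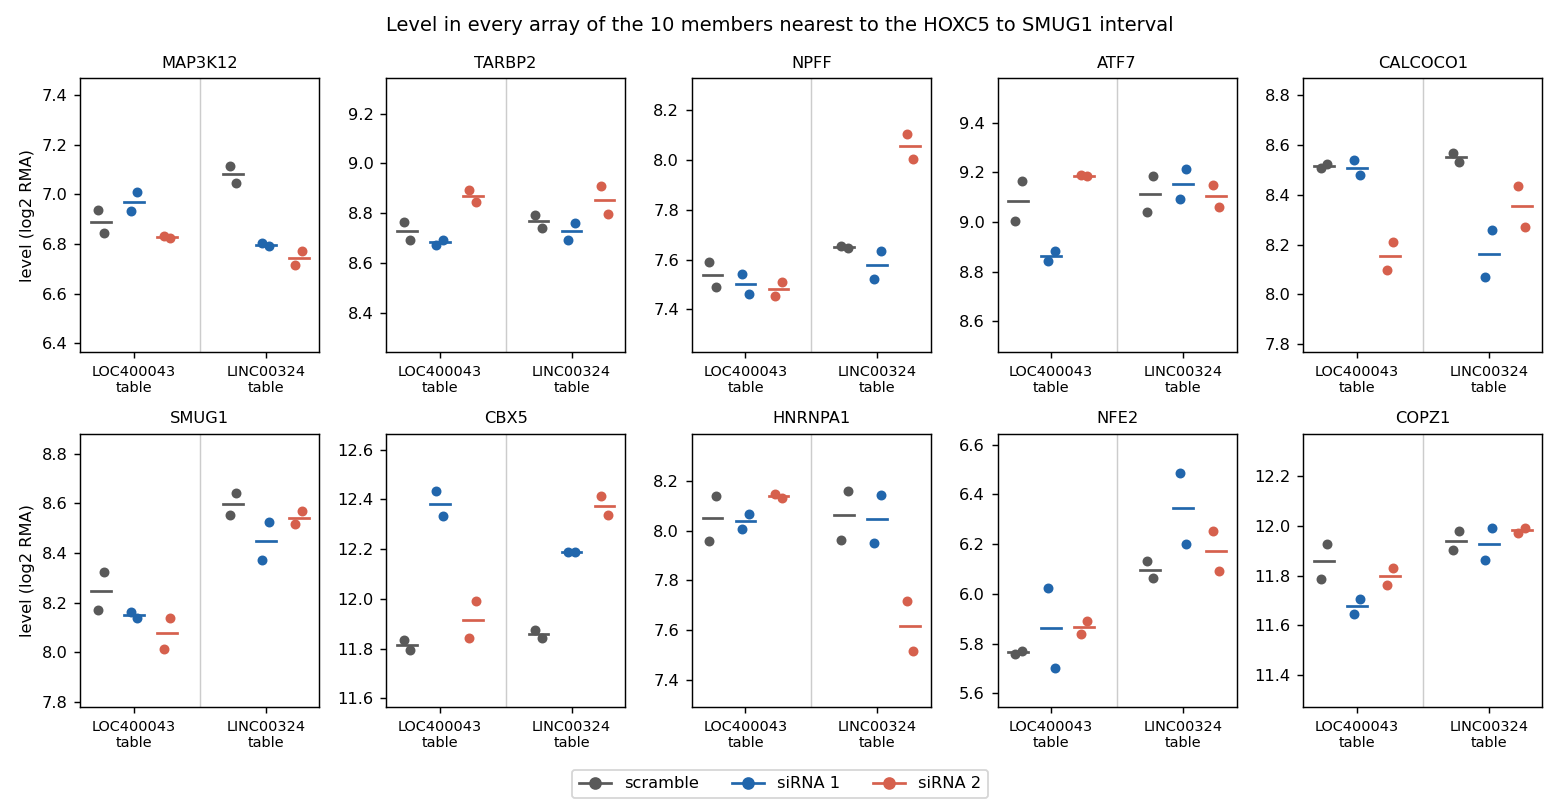
Log2 RMA level (vertical axis, the same span of 1.1 in every panel) in each array of 10 window genes, ordered by position. They are the 5 nearest to the HOXC5 to SMUG1 interval on each side, not the 10 nearest of both sides together. The LOC400043 table is at the left and the LINC00324 table at the right of each panel. Points are arrays and lines are group means of 2 arrays. CBX5 stood above scramble with LOC400043 siRNA 1 and with both LINC00324 siRNAs, while SMUG1, NFE2 and COPZ1 were not called in any comparison.

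Of the 9 genes for transcription factors and chromatin, 2 rose with the mean of the LOC400043 siRNAs, CBX5 and SP7, and none fell. The median was 0.05. Over all genes 6.08% rose and 11.5% fell with that mean. Taken apart, siRNA 2 gave a fall of ZNF385A in this group (-0.35, limma, adjusted p = 0.0214), where 13.8% of all genes fell. SP7 encodes osterix, a factor required for bone-forming cells, and lies at chr12:53720359-53730009 on the minus strand. It was at 6.98 and 6.82 in scramble, 7.25 and 7.24 with siRNA 1, and 7.17 and 7.15 with siRNA 2. The 4 siRNA arrays lay close together and all above scramble, by a mean of 0.30 (SE 0.06, adjusted p = 0.0229), made up of 0.34 with siRNA 1 (adjusted p = 0.0317) and 0.26 with siRNA 2, the latter not called (adjusted p = 0.0523). Without scramble replicate 2 the difference was 0.22 and was no longer called (adjusted p = 0.0869), and leaving out any siRNA array or fitting the siRNAs as a single group also ended the call. SP7 differed by 0.11 with the LINC00324 siRNAs (SE 0.16, adjusted p = 0.807), with arrays of siRNA 1 at 7.69 and 7.13 on either side of scramble. SP1, the gene of a factor that binds GC boxes, is the head-to-head neighbour of SP7, 43969 bases away. SP1 was at 9.80 and 9.93 in scramble, 9.84 and 9.73 with LOC400043 siRNA 1, and 9.79 and 9.83 with siRNA 2. Its difference was -0.07 (SE 0.07, limma, adjusted p = 0.532). RARG, a retinoic acid receptor gene, ZNF740, a zinc finger gene, and NEUROD4, a gene of neuronal differentiation, differed by -0.08, 0.05 and 0.05 without a call.

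ESPL1 encodes separase, the protease that cleaves cohesin when sister chromatids part. It lies at chr12:53662551-53687427 on the plus strand. Its level was 9.69 and 9.63 in scramble, 9.31 and 9.23 with LOC400043 siRNA 1, and 9.24 and 9.22 with siRNA 2. Every siRNA array was below scramble, and the siRNAs lay at like levels. The difference was -0.41 (SE 0.06, adjusted p = 0.00585), or 1.33-fold lower, and the siRNAs taken apart gave -0.39 (siRNA 1, adjusted p = 0.0153) and -0.43 (siRNA 2, adjusted p = 0.00606). ESPL1 was called under all 12 alternatives of processing and array choice, with differences from -0.44 to -0.36. In the LINC00324 table it was at 9.71 and 9.62 in scramble, 9.44 and 9.57 with siRNA 1, and 9.90 and 9.80 with siRNA 2, on either side of scramble, and the mean difference was 0.01 (SE 0.08). Of the other genes of cohesin cleavage, PTTG1, RAD21, SMC1A and SMC3, none was called with the mean of the LOC400043 siRNAs, with differences from -0.08 to 0.14. RAD21, which encodes a cohesin subunit that separase cuts, rose by 0.34 with siRNA 2 (SE 0.06, adjusted p = 0.0104) and differed by -0.06 with siRNA 1, and the other 3 were called with neither siRNA. PTTG1 encodes securin, the inhibitor of separase.

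C12orf10, now MYG1 and the gene of an RNA exonuclease, lies at chr12:53693471-53700962 on the plus strand. Its level was 9.81 and 9.80 in scramble, 10.28 and 10.16 with LOC400043 siRNA 1, and 10.13 and 10.17 with siRNA 2. The groups did not overlap, and the difference was 0.38 (SE 0.06, adjusted p = 0.00798), or 1.30-fold, and each siRNA was called, siRNA 1 at 0.42 (adjusted p = 0.0137) and siRNA 2 at 0.35 (adjusted p = 0.0143). It too was called under all 12 alternatives, with differences from 0.35 to 0.43. In the LINC00324 table it was at 9.98 and 9.85 in scramble, 10.19 and 10.38 with siRNA 1, and 10.18 and 10.18 with siRNA 2. All 4 were above scramble, with 0.37 for siRNA 1, 0.27 for siRNA 2 and a mean of 0.32 (SE 0.08) that was not called (adjusted p = 0.171). The scramble arrays are the same in both tables.

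AAAS, the gene of the nuclear pore protein ALADIN, lies at chr12:53701240-53715380 on the minus strand. With the mean of the LOC400043 siRNAs it fell, while the other 3 of the 4 genes of folding, transport and the nuclear pore were not called. Of these, CALCOCO1 fell with siRNA 2 alone. AAAS was at 10.42 and 10.45 in scramble, 10.30 and 10.27 with LOC400043 siRNA 1, and 10.10 and 10.10 with siRNA 2. All siRNA arrays were lower, those of siRNA 2 most, by a mean of -0.24 (SE 0.05, adjusted p = 0.0249), of which siRNA 1 gave -0.15 (adjusted p = 0.179) and siRNA 2 gave -0.34 (adjusted p = 0.0106). Centring the arrays on their medians left -0.20 and no call (adjusted p = 0.0536). The call also ended without scramble replicate 2, without any siRNA array and with the siRNAs as a single group (adjusted p = 0.0732 to 0.199). The LINC00324 siRNAs gave -0.09 (SE 0.07). PFDN5, which encodes a subunit of the prefoldin chaperone, differed by 0.15 (SE 0.08, adjusted p = 0.262) with the LOC400043 siRNAs.

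PPP1R1A encodes an inhibitor of protein phosphatase that is switched on by protein kinase A. With the mean of the LOC400043 siRNAs it was called, unlike the other 5 of the 6 genes of signalling and enzymes. It lies at chr12:54971172-54982456 on the minus strand. It was at 8.12 and 7.91 in scramble, 7.74 and 7.75 with LOC400043 siRNA 1, and 7.46 and 7.33 with siRNA 2. All 4 siRNA arrays were lower, by a mean of -0.45 (SE 0.08, adjusted p = 0.0109), or 1.36-fold. The fall was -0.62 with siRNA 2 (SE 0.09, adjusted p = 0.00437) and the difference -0.27 with siRNA 1 was not called (adjusted p = 0.106). With the siRNAs as a single group the call ended (adjusted p = 0.146). The LINC00324 siRNAs gave -0.06 (SE 0.16), with arrays of siRNA 2 at 7.27 and 7.70. PDE1B, a phosphodiesterase gene whose end overlaps that of PPP1R1A by 1851 bases on the other strand in the tables' coordinates, differed by 0.15 (SE 0.09, adjusted p = 0.294) with the LOC400043 siRNAs. On GRCh38.p14 RefSeq puts the end of PDE1B at 54579239 and that of PPP1R1A at 54579246, without an overlap. CSAD, the gene of a taurine-forming enzyme, differed by -0.23 (SE 0.07, adjusted p = 0.0641), and fell by 0.30 with siRNA 2 (adjusted p = 0.0375).

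**Figure D3:**
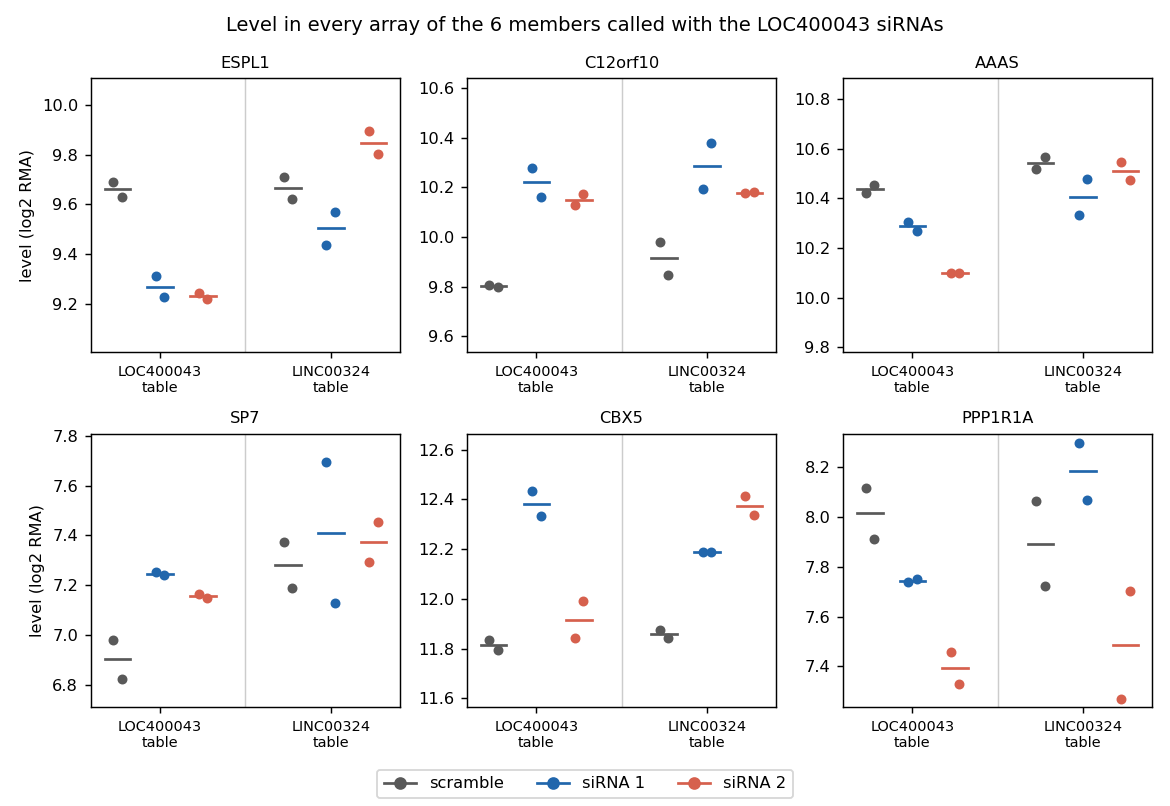
Log2 RMA level (vertical axis, the same span of 1.1 in every panel) in each array of the 6 window genes called with the mean of the LOC400043 siRNAs, with the LOC400043 table at the left and the LINC00324 table at the right of each panel. Points are arrays and lines are group means of 2 arrays. In the LOC400043 table every siRNA array lay beyond both scramble arrays on the called side, and in the LINC00324 table this held for C12orf10 and CBX5 only.

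The remaining groups held no gene called with the mean of either lncRNA's siRNAs. For RNA binding, HNRNPA1, PCBP2 and TARBP2 differed by -0.05 to 0.05 with the LOC400043 siRNAs. PCBP2 encodes a protein that binds runs of cytosine in RNA. The 5 genes of adhesion and blood cells, ITGA5, ITGB7, NCKAP1L, GPR84 and KIAA0748 (TESPA1), differed by 0.04 to 0.22. The 3 genes of secreted gland proteins, DCD of sweat, LACRT of tears and MUCL1, differed by -0.03 to 0.06. GTSF1, a gene of germ cells known from mouse for silencing transposons, differed by 0.13 (SE 0.07). Over all arrays of the LOC400043 table the mean log2 level of the window genes ran from 4.51 for GTSF1 to 12.69 for PCBP2 with a median of 7.90. The 8 genes with a mean under 6, namely GTSF1, NCKAP1L, GPR84, LACRT, MUCL1, NEUROD4, NFE2 and KIAA0748, held none of the calls. In the whole table few genes of that level were called with the mean of both siRNAs, 154 of 4733.

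The siRNAs against LOC400043 were then compared with each other. With siRNA 1, 4 window genes were called (11.1%, against 11.5% of the table): C12orf10, SP7 and CBX5 rose (4.05% of the table did) and ESPL1 fell (7.46% of the table). With siRNA 2, 8 were called (22.2%, against 21.7% of the table): C12orf10 and ITGA5 rose (7.9% of the table), and CSAD, ESPL1, AAAS, CALCOCO1, ZNF385A and PPP1R1A fell (13.8% of the table). No window gene remained called for siRNA 1 without either of its arrays, and 3 or 4 were called for siRNA 2 without replicate 1 or 2 of siRNA 2. C12orf10 and ESPL1 were in both sets. Between the siRNAs 7 genes differed (19.4%, against 17.1% of the table). HIGD1A, CALCOCO1, CBX5, ZNF385A and PPP1R1A were higher with siRNA 1 (9.63% of the table), and ATF7 and ITGA5 were higher with siRNA 2 (7.5% of the table). Without any 1 of the 4 siRNA arrays 2 to 4 genes differed. Of these 7, 5 lie within 500 kb of the interval, where 13 of the 36 window genes lie. The size of the difference between siRNAs had a Pearson correlation of -0.38 and a Spearman correlation of -0.32 with distance over 36 genes, given as a description since all points share the arrays. Without HIGD1A these values were -0.48 and -0.41. For LINC00324 siRNA 1 minus siRNA 2 the values were -0.20 and -0.27 over 36 genes, and -0.27 and -0.35 without HIGD1A.

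ZNF385A, a zinc finger gene at chr12:54762920-54785070, was at 8.27 and 8.18 in scramble, 8.59 and 8.46 with LOC400043 siRNA 1, and 7.92 and 7.83 with siRNA 2. Scramble lay between the siRNAs, whose difference was 0.65 (SE 0.08, adjusted p = 0.00288). Against scramble, siRNA 1 differed by 0.30 (adjusted p = 0.0573) and siRNA 2 by -0.35 (adjusted p = 0.0214), so the mean of both was -0.03. In the LINC00324 table it was at 8.41 and 8.30 in scramble, 8.31 and 8.44 with siRNA 1, and 7.69 and 7.75 with siRNA 2. There siRNA 1 overlapped scramble, siRNA 2 fell by 0.63 (SE 0.09, adjusted p = 0.0290), and siRNA 1 minus siRNA 2 was 0.65 (SE 0.09, adjusted p = 0.0224).

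ITGA5, which encodes the alpha subunit of the fibronectin receptor, lies at chr12:54789045-54813050 on the minus strand, and its end is 3975 bases from the start of ZNF385A. It was at 8.54 and 8.57 in scramble, 8.50 and 8.46 with LOC400043 siRNA 1, and 8.94 and 8.94 with siRNA 2. It rose with siRNA 2 by 0.38 (SE 0.06, adjusted p = 0.00675) and differed by -0.07 with siRNA 1, and siRNA 1 minus siRNA 2 was -0.46 (SE 0.06, adjusted p = 0.00439). With LINC00324 siRNAs it differed by 0.12 and -0.12 from scramble. HIGD1A was at 10.34 and 10.63 in scramble, 10.50 and 10.69 with LOC400043 siRNA 1, and 10.16 and 10.14 with siRNA 2. Its siRNA difference was 0.45 (SE 0.11, adjusted p = 0.0396).

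With LINC00324 siRNA 1 no window gene was called (0.498% of the table was), and 4 passed an unadjusted p of 0.05 by limma, against 13.2% of the table. With siRNA 2, 2 were called (5.56%, against 1.85% of the table), CBX5 higher (0.503% of the table) and ZNF385A lower (1.34% of the table). Between these siRNAs 3 differed (8.33%, against 3.07% of the table): PCBP2 and ZNF385A were higher with siRNA 1 (2.28% of the table), and NPFF with siRNA 2 (0.785% of the table). PCBP2 had group means of 12.72 in scramble, 12.77 with siRNA 1 and 12.34 with siRNA 2, and NPFF of 7.65, 7.58 and 8.06. Leaving out either scramble array or either siRNA 2 array left no call for LINC00324 siRNA 2 among the window genes or in the whole table, and leaving out any array left 0 or 1 gene between the siRNAs.

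**Figure D4:**
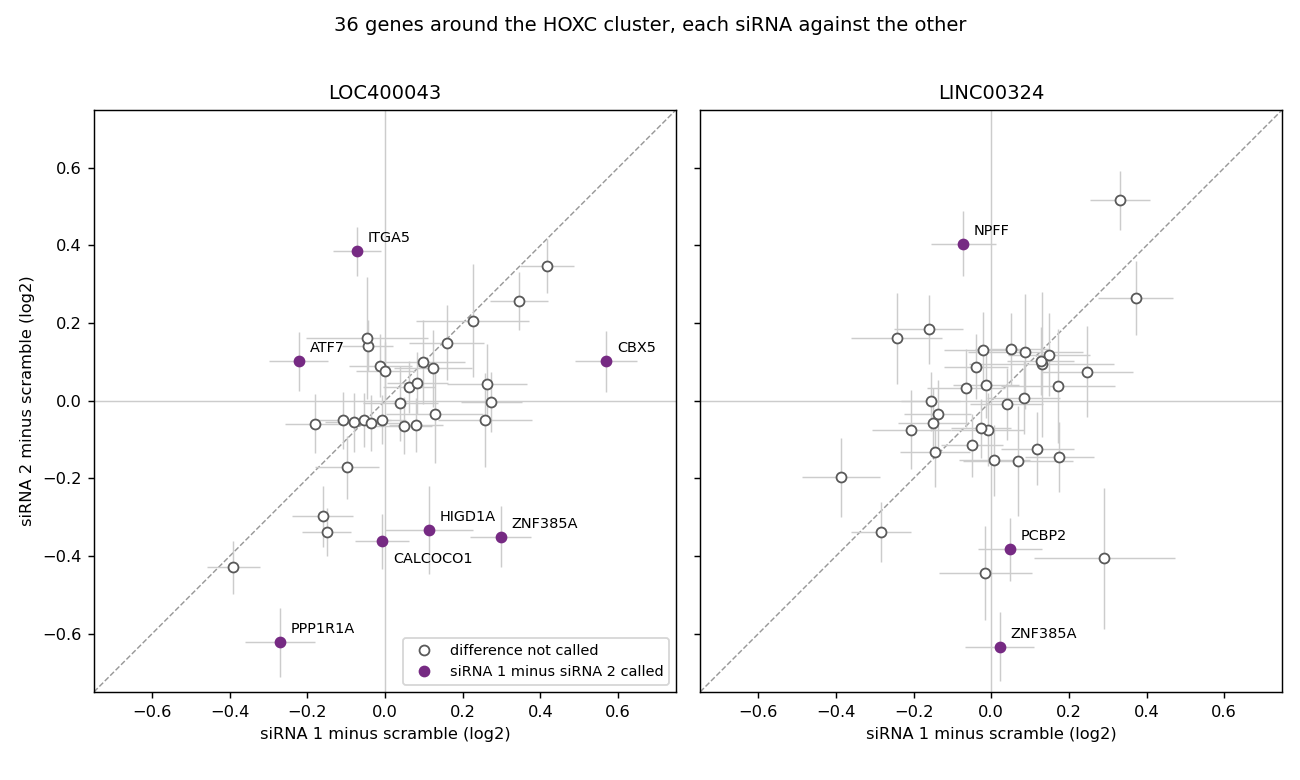
Difference from scramble with siRNA 1 (log2, horizontal axis) against that with siRNA 2 (log2, vertical axis) for the 36 window genes, with LOC400043 at the left and LINC00324 at the right. Bars are 1 SE, the dashed line marks equal differences, and filled points are genes called between the siRNAs (7 and 3). The axes share the scramble arrays, so points tend toward the dashed line for that reason alone. ZNF385A lies below the line in both panels.

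Neighbouring genes were compared pair by pair. Of 32 pairs of adjacent window genes, 16 (50%) had differences of the same sign with the LOC400043 siRNAs, against 52.0% of 18439 adjacent pairs in the table. The median size of the gap within a pair was 0.16, against 0.17. In 2 of the 32 pairs both genes were called, and in both of these the directions were opposite, against 656 of the 18439 pairs of the table with both genes called, 216 of them opposite. C12orf10, higher by 0.38, and AAAS, which fell by 0.24, end 278 bases apart on opposite strands in the tables' coordinates. AAAS and SP7, higher by 0.30, follow each other on the minus strand. ESPL1, which fell by 0.41, is followed on the plus strand by PFDN5 at 0.15 and then by C12orf10. Head-to-head pairs were taken at any distance, from 152 bases (CSAD and ZNF740) to 206150 bases (DCD and MUCL1). CSAD and ZNF740 had a log2 gap of 0.28, and CBX5 and HNRNPA1, 602 bases apart, had 0.30. MAP3K12 and TARBP2, 1261 bases apart, had 0.04. For the 9 head-to-head pairs the median gap was 0.07, against 0.17 in the table. GTSF1 and NCKAP1L, DCD and MUCL1, and KIAA0748 and NEUROD4 had gaps of 0.03, 0.05 and 0.0079. These are genes of low level, with mean log2 values from 4.51 to 6.32. The part of level in the small median was not tested. Of the 9 pairs 6 had the same sign (66.7%, against 52.8% of such pairs in the table). None of them had both genes called. With the LINC00324 siRNAs the head-to-head pairs had a median gap of 0.15, against 0.14 in the table, and 4 of 9 had the same sign (44.4%, against 52.9%).

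Along chromosome 12, 2 of the 7 HOXC genes of the window were called with the mean of the LOC400043 siRNAs (28.6%, against 17.5% of the table), HOXC10 and HOXC8, which were higher by 0.56 and 0.34. With siRNA 1 alone HOXC10 was called (14.3%, against 11.5% of the table). With siRNA 2 alone 4 of the 7 were called (57.1%, against 21.7% of the table): HOXC8, HOXC10 and HOXC11 rose and HOXC5 fell. Between the LOC400043 siRNAs 3 differed (42.9%, against 17.1% of the table). HOXC5 was higher with siRNA 1 by 0.45, and HOXC9 and HOXC11 were higher with siRNA 2. Between the LINC00324 siRNAs 1 of the 7 differed (14.3%, against 3.07% of the table), HOXC13. With the LINC00324 siRNAs HOXC10 and HOXC8 were higher by 0.51 (SE 0.11, adjusted p = 0.119) and 0.25 (SE 0.08, adjusted p = 0.222), without a call, and for both genes all 4 siRNA arrays lay above both scramble arrays. In the 2 Mb before the window 6 of 46 genes were called (13.0%), where 24 of the genes are keratins. In the 2 Mb after it 18 of 73 were called (24.7%), and 15 of those 73 genes are olfactory receptors. On the rest of the chromosome 179 of 939 were called (19.1%). With the mean of the LINC00324 siRNAs the counts were 0 of 36 window genes, 0 of 7 HOXC genes, 0 of 46 before, 1 of 73 after and 3 of 937 elsewhere on the chromosome.

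**Figure D5:**
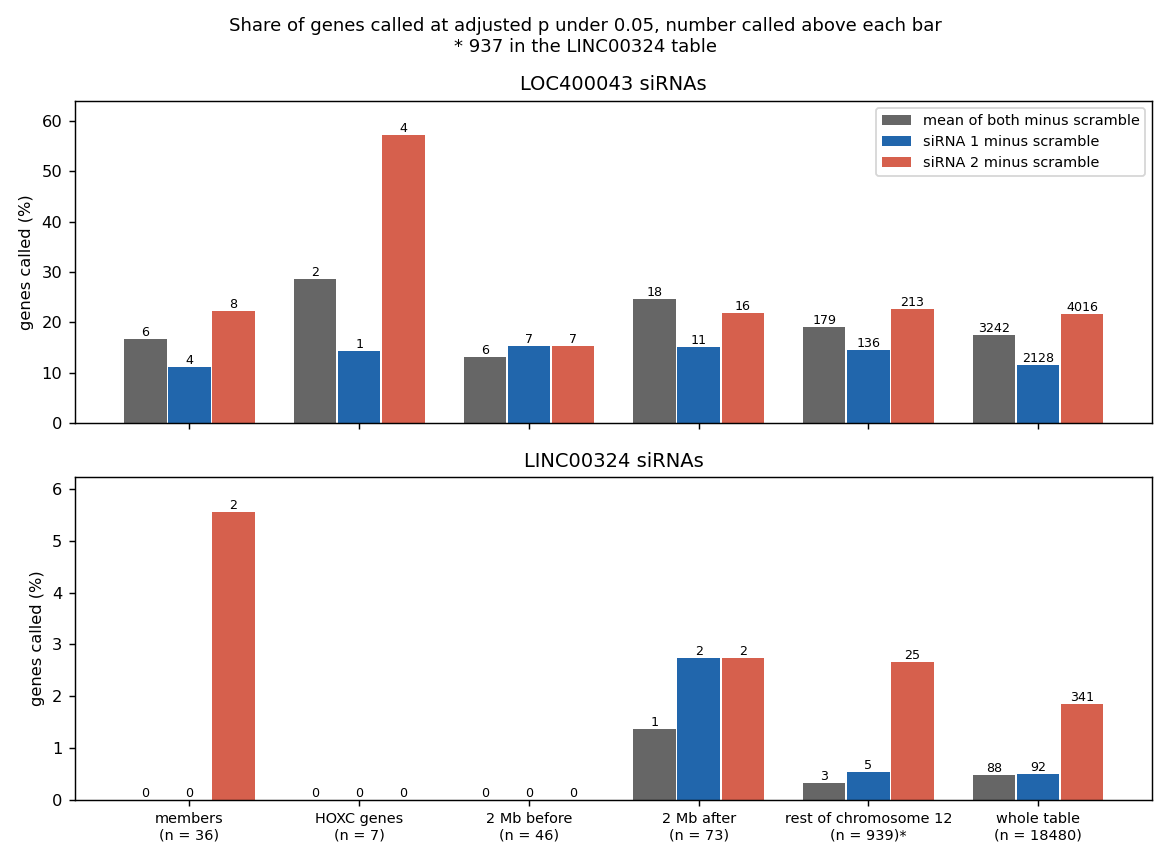
Share of genes called at an adjusted p under 0.05 (%, vertical axis) for the window genes ("members"), the HOXC genes, the 2 Mb on either side, the rest of chromosome 12 and the whole table, with LOC400043 siRNAs above and LINC00324 siRNAs below on separate scales. Bars are the mean of both siRNAs and each siRNA against scramble, and the number called stands above each bar. The window genes were called at 16.7%, 11.1% and 22.2% in the upper panel, against 17.5%, 11.5% and 21.7% of the whole table.

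The relatives of the window genes elsewhere in the genome were set beside them. Of the 3 genes of heterochromatin protein 1, CBX5 alone was called with the LOC400043 siRNAs, and CBX1 and CBX3 differed by 0.06 (SE 0.06) and 0.11 (SE 0.05). For the LINC00324 siRNAs CBX1 and CBX3 differed by -0.01 (SE 0.07) and -0.0034 (SE 0.06). HNRNPA0 fell by 0.36 (SE 0.06, adjusted p = 0.00769) with the LOC400043 siRNAs, while HNRNPA1, HNRNPA2B1, HNRNPA3 and HNRNPAB stayed within -0.02 to 0.05. Among relatives of ITGA5, ITGAV rose by 0.77 and ITGA6 fell by 0.26, and ITGB1 was not called with the mean of both siRNAs but rose by 0.32 with siRNA 2 (adjusted p = 0.0218). In the coatomer COPG fell by 0.46 (SE 0.07, adjusted p = 0.00686), and the other 6 measured subunits, COPZ1 included, were not called with the mean of both siRNAs. With siRNA 2 alone COPB1 rose by 0.28 (adjusted p = 0.0302) and COPB2 fell by 0.22 (adjusted p = 0.0491). With the mean of the LOC400043 siRNAs no gene was called among 5 poly(C)-binding, 4 Sp, 6 prefoldin, 2 retinoic acid receptor and 4 Dicer complex genes. Taken apart, siRNA 2 gave calls for PCBP3, which fell by 0.72 (adjusted p = 0.00464), for SP2, SP3 and PFDN1, which rose by 0.31, 0.30 and 0.38, and for VBP1, a prefoldin gene that fell by 0.49. With siRNA 1 PFDN6 rose by 0.32. Between the siRNAs PCBP3, SP3, PFDN1, VBP1, RARA and DICER1 differed. With the mean of the LINC00324 siRNAs and with siRNA 1 no gene of any of these families was called, with siRNA 2 CBX5 rose and PCBP1 fell, and between these siRNAs PCBP1, PCBP2 and ITGB1 were higher with siRNA 1.

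The authors' deposited table gave its own unadjusted p under 0.05 for 6 of the 36 window genes with LOC400043, against 17.5% of its genes, and for 4 with LINC00324, against 7.96%. In the authors' deposited table these were ESPL1, C12orf10, SP7, AAAS, PPP1R1A and CSAD for LOC400043, with CBX5 outside, and CBX5, C12orf10, MAP3K12 and CALCOCO1 for LINC00324.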

How the data were processed

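The values are log2 levels that the authors made with RMA, and the deposited tables also hold the authors' log2 difference and unadjusted p-value, per the submitters' processing notes made with limma. Tool versions, the genome build and the annotation were not given in the sources used here. Log2 values of each table entered a linear model of limma 3.58.1 under R 4.3.3, with empirical Bayes variances and two-sided tests. The model had 3 groups of 2 arrays (scramble and either siRNA) and 3 residual degrees of freedom. Benjamini-Hochberg adjustment covered all 18480 genes, a gene was called at an adjusted p under 0.05, and no gene was filtered out. The number of arrays limits the precision. The steps were tested on simulated data.

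A deposited value table of 10 arrays is not on a common scale: its scramble columns equal those of the LINC00324 table and differ from the LOC400043 table by a median of 0.12 (log2). The planned comparison between lncRNAs was therefore not made.

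Every window gene may be named. Values in every array of the LOC400043 table are given for genes called with the mean of either lncRNA's siRNAs, the 5 nearest genes per side, genes called between the LOC400043 siRNAs, and the head-to-head neighbours of these. The text gives the arrays of the LINC00324 table for some of these genes only. The window, gene lists and tests were chosen with earlier results of these data known. Symbols were matched to RefSeq by accession for all 36 genes. The alternatives tried were the replicate number as a block, a filter at a mean log2 of 5, an intensity trend, a second quantile normalization, median centring, both siRNAs as a single group, and leaving out each array.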

Additional observations from a re-analysis of the deposited data

Results flagged for a closer look

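For 10 combinations of gene and lncRNA, the effect of siRNA 1 against scramble differed from the effect of siRNA 2, by limma's test of siRNA 1 minus siRNA 2 at an adjusted p under 0.05 over all genes. For LOC400043 the difference in log2 was 0.65 for ZNF385A, 0.47 for CBX5, 0.45 for HIGD1A, 0.35 for CALCOCO1, 0.35 for PPP1R1A, -0.32 for ATF7 and -0.46 for ITGA5. Under the 11 alternatives that keep the siRNAs apart, ZNF385A and ITGA5 were called in all 11, CBX5 in 9, ATF7 and CALCOCO1 in 7, and HIGD1A and PPP1R1A in 6. For LINC00324 it was 0.65 for ZNF385A, 0.43 for PCBP2 and -0.48 for NPFF, called in 7, 3 and 4 of 11 alternatives. These genes make up 19.4% and 8.33% of the 36 window genes, against 17.1% and 3.07% of the whole tables.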

How the results depend on the processing

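With the mean of the LOC400043 siRNAs, 6 window genes were called, and 2 (3.25% of the table) when both siRNAs were taken as a single group. An intensity trend gave 8 calls for LOC400043 siRNA 1 (4 without it), 3 for the mean of the LINC00324 siRNAs (0), 2 for LINC00324 siRNA 1 (0), 4 for siRNA 2 (2) and 7 between these siRNAs (3), while the called share of the table was 18.8%, 5.81%, 5.04%, 8.12% and 10.1% (11.5%, 0.476%, 0.498%, 1.85% and 3.07% without it). A second quantile normalization gave 1 call for the mean of the LINC00324 siRNAs (1.66% of the table) and 4 for siRNA 2 (4.23%). CBX5 was then called with the mean of the LINC00324 siRNAs (adjusted p = 0.0311, and 1.44e-05 with the trend), as was C12orf10 with the trend (adjusted p = 0.0123). Leaving out an array gave 3 to 6 calls for the mean of the LOC400043 siRNAs, 3 without replicate 1 or 2 of siRNA 1 or replicate 2 of siRNA 2. It gave 0 to 6 for siRNA 1 (0 without either of its arrays), 3 to 8 for siRNA 2 (3 and 4 without replicate 1 and 2 of siRNA 2) and 2 to 7 between them. For LINC00324 it gave 0 to 0 for the mean and for siRNA 1, 0 to 3 for siRNA 2 and 0 to 1 between them. Without an array the called share of the table was 7.93% to 17% for the mean of the LOC400043 siRNAs, 1.39% to 12.5% for siRNA 1, 9.68% to 21.2% for siRNA 2 and 5.35% to 19.9% between them, and 0% to 0.871%, 0% to 0.379%, 0% to 4.05% and 0% to 3.36% for LINC00324 in the same order. The cause was not tested. With the replicate block, 7 genes were called for the mean of the LOC400043 siRNAs (6 without it, with 17.5% of the table called). The count between the LINC00324 siRNAs went from 3 (3.07% of the table without the block) to 1. The block moved no other count by over 1.5 times. The called share of the table with the block is not given here, so these counts cannot be set against it. The labels do not say that a number marks a shared batch, and replicate differences of same-numbered arrays had correlations over genes of 0.23, 0.37 and 0.09 in the LOC400043 table and 0.60, -0.18 and -0.38 in the LINC00324 table, so the numbers were taken as names. Of 228 values of 19 named genes under alternatives for each lncRNA, 19 lost and 1 gained a call for LOC400043, and 3 gained one for LINC00324. No called value turned its sign, while 12 and 20 uncalled values did. The Spearman and Pearson correlations of size with distance for LOC400043 were -0.02 and 0.05 without HIGD1A, and this and the distance on GRCh38.p14 were chosen after seeing the data. The comparison of the lncRNAs with each other and the fit on the 10-array value table were not run, since that table is not on a common scale.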
